A study of Mus musculus with 2 samples.

Results

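Skeletal muscle energy enzymes are the 10 genes Ckm, Ckmt2, Pygm, Phkg1, Gys1, Pfkm, Pgam2, Eno3, Ampd1 and Mb, of 40879 gene symbols with a read count in the intestine of ERAP1 wild-type (WT) and heterozygous (ERAP1+/-) mice. They were taken by symbol, and were chosen by their values in this same comparison, as muscle forms of which several fell and some, such as Eno3, stayed level. The differences below are therefore a description, and no test is attached to them. RNA of 3 mice was pooled for each genotype and sequenced as 1 library from the 3' ends of transcripts, so that no difference has a replicate check. Both groups are on the C57BL/6 background, were 8 weeks old and called germ-free although housed in a specific pathogen-free facility. No treatment is named for either library, and the paper's discussion places the comparison under steady-state conditions. The ERAP1+/- mice carry 1 allele in which Cre recombinase from a strain that the methods do not name removed exons 6 and 7 of Erap1, and the WT mice carry none.

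A muscle fibre spends ATP faster than respiration can supply it at the start of a contraction, and the enzymes described here bridge that gap. Creatine kinase rebuilds ATP from phosphocreatine, glycogen phosphorylase and its activating kinase release glucose units from stored glycogen, glycolysis turns them into ATP, AMP deaminase keeps the adenylate pool charged, and myoglobin stores oxygen. Most of these steps exist in every cell through other genes, and the fibre uses its own form of the enzyme. The gut wall is built of smooth muscle, which relies largely on the forms shared with other tissues, and within the gut striated fibres are found in the gullet and in the outer sphincter of the anal canal.

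Counted reads numbered 8114826 in WT and 8907515 in ERAP1+/-. Levels are given as library-scaled read counts (CPM, with TMM factors), or as log2(CPM + 1), and intervals are exact at 95% and take in counting error alone. Where no read was counted, 3 reads were taken as a working limit (0.386 CPM in WT and 0.322 CPM in ERAP1+/-). The exact 95% upper limits are somewhat higher, at 0.475 CPM in WT and 0.397 CPM in ERAP1+/-. Erap1 itself, as the check of the genotype, had 229 and 2 reads, which left 0.730% of its WT level (95% interval 0.0878% to 2.67%). That is lower than a single intact copy would leave if each copy gave equal RNA, so the second library is named here by its label, and every direction given is that of the library labelled ERAP1+/-. Xist, the transcript of the inactive X chromosome, had 1635 and 6451 reads, and the Y-linked genes Ddx3y, Eif2s3y, Uty and Kdm5d had 319 and 29, 111 and 1, 110 and 11, and 72 and 5 reads. Sex, which is not given for the pooled mice, and genotype therefore cannot be told apart. The 12 genes taken as markers of intestinal epithelium all had reads in both libraries, with log2 differences from -1.20 (Krt20) to 1.19 (Muc2). In pooled tissue, fewer cells of a type and less RNA per cell cannot be told apart.

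The promoters of 9 of the 10 genes were found in RefSeq (GRCm38.p6), as 14 windows from 250 bases before to 50 bases after an annotated start. Mb had 3 windows and Pfkm 4, and a gene was counted when any of its windows held a site. The E-box CANNTG, read on both strands, is the site of the myogenic factors, and it was present for all 9 genes and for 20265 of all 27025 genes with a window. The narrower form CAGCTG, which is contained in CANNTG, was present for 7 of the 9 genes (Ckm, Ckmt2, Pygm, Pgam2, Mb, Eno3 and Gys1) and for 18.3% of all genes. By window, 13 of the 14 held CANNTG and 8 held CAGCTG. The MEF2 site was found only in the window of Pgam2 and for 2.16% of all genes. The core CATTCC, also read on both strands, was found for Pgam2 and Eno3, and for 16.6% of all genes, and TATAAA for 0 of the 9 genes and 15.7% of all genes. These matches are letters in a window and not evidence of binding. CAGCTG stood in windows of genes with large differences between the libraries and also in those of Eno3 and Gys1, which differed little.

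The windows of Ckm, Pygm and Pgam2, which were lower in ERAP1+/-, are shown with those of Eno3 and Gys1. They lie on GRCm38.p6 at chr7:19410844-19411143 (plus strand) for Ckm, chr19:6384158-6384457 (plus) for Pygm, chr11:5803747-5804046 (minus) for Pgam2, chr11:70656926-70657225 (plus) for Eno3 and chr7:45434589-45434888 (plus) for Gys1. Capitals mark every CANNTG and, in Pgam2, the MEF2 site.
Ckm: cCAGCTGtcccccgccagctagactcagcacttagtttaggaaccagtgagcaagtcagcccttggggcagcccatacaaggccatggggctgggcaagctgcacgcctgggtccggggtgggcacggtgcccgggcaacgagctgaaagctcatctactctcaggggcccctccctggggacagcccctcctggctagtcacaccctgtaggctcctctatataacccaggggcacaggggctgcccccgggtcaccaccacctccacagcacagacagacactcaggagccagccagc
Pygm: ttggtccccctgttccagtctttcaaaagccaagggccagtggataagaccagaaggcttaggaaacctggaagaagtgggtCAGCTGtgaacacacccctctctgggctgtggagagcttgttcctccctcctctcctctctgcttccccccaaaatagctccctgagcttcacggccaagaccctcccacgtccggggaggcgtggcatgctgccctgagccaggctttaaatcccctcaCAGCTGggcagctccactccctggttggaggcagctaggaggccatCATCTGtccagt
Pgam2: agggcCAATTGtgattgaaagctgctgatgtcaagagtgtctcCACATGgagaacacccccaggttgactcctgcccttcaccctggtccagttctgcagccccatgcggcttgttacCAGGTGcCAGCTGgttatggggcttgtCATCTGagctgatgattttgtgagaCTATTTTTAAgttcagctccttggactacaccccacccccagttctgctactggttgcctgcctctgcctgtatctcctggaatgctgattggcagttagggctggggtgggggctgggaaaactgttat
Eno3: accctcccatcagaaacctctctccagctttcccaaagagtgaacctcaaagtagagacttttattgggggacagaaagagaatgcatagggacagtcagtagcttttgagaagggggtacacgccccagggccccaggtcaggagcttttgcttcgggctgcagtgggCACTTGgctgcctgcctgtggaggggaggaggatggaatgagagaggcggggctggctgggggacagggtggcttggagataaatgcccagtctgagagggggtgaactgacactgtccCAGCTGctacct
Gys1: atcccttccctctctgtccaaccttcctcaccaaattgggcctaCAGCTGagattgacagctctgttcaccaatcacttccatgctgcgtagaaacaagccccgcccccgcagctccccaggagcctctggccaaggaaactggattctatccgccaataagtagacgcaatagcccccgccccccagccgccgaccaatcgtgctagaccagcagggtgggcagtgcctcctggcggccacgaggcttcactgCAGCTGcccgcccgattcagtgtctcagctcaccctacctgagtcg

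The muscle energy enzymes divided into genes that nearly disappeared in ERAP1+/-, genes that were partly lower and genes that were close to level. Mb and Pgam2 fell to 1 read each, Ckm, Pygm and Pfkm were 9.85-fold, 4.98-fold and 2.15-fold lower, and Eno3 and Gys1 were at 93.2% and 88.6% of their WT levels. A gene was called lower or higher when log2(CPM + 1) differed by more than 2-fold between the libraries and reached at least 4 in 1 or both of them. Of the 10 genes, 6 reached that level, 4 were called lower and 0 higher, where 3.96% of all 8013 genes past that level were called lower and 1.39% higher. The 4 lower genes, Ckm, Pygm, Mb and Pfkm, reached the level in WT alone, while Eno3 and Gys1 reached it in both. With at least 10 reads in 1 or both libraries in place of that level, 6 were called lower, the additional ones being Pgam2 and Ampd1, beside 5.92% of all genes. With scaling by the total count, 248 of all genes were lower and 166 higher, in place of 317 and 111. Since these values chose the genes, nothing is read from the counts.

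**Figure D1:**
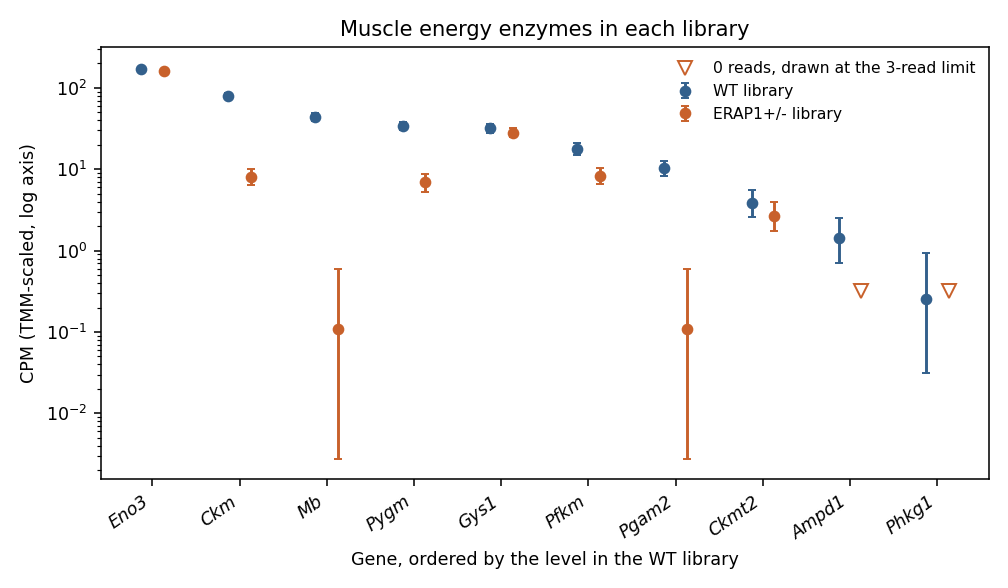
Level of each muscle energy enzyme in CPM on a log axis in the WT (blue) and ERAP1+/- (orange) libraries, with exact 95% counting intervals, 1 library per genotype. Eno3 is the highest in both libraries (171 and 160 CPM), and Mb and Pgam2 drop from 43.9 and 10.3 CPM to 0.107 CPM, while open triangles mark 0 reads, drawn at the limit of 3 reads.

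The phosphagen genes encode creatine kinases. Ckm, the cytosolic muscle creatine kinase that binds at the M line and rebuilds ATP beside the myosin heads, lies on chromosome 7 of GRCm38 (GENCODE M21) from 19404776 to 19422841 and had 617 reads in WT and 75 in ERAP1+/-. These are 79.4 and 8.06 CPM, a log2 difference of -3.15, which left 10.2% of the WT level (95% interval 7.88% to 12.9%). Ckm was thus present in both libraries and far lower in the second. Ckmt2, the sarcomeric mitochondrial creatine kinase, which charges creatine at the mitochondrial membrane (chromosome 13, 91853387 to 91876885), had 30 and 25 reads. Its ratio of 0.696 had an interval from 0.393 to 1.22, so that at this depth a difference was not detectable.

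The glycogen genes differed from each other. Pygm, muscle glycogen phosphorylase, which cuts glucose units from glycogen and whose loss causes McArdle disease in people, lies on chromosome 19 from 6384399 to 6398459. It had 266 reads in WT and 64 in ERAP1+/-, or 34.2 and 6.88 CPM, and its level was 20.1% of the WT level (95% interval 15.1% to 26.5%). Phkg1, the catalytic subunit of muscle phosphorylase kinase that switches Pygm on (chromosome 5, 129863421 to 129898549), had 2 reads and 0 reads, both within the limit that a count of 0 allows, and no fold is given. Gys1, the form of glycogen synthase named for muscle, lies on chromosome 7 from 45434844 to 45456619. It had 248 and 263 reads, or 31.9 and 28.3 CPM, and the interval of its ratio, 0.742 to 1.06, included 1. Pygm was thus far lower, and for Gys1 a difference was not detectable at this depth. Whether the reads of Pygm and Gys1 came from the same cells was not tested. Pygb, the brain form of the phosphorylase, had 887 and 1023 reads.

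The glycolytic genes differed from each other as well. Pfkm, the muscle subunit of phosphofructokinase, which sets the pace of glycolysis (chromosome 15, 98092589 to 98132451), had 138 and 77 reads, or 17.8 and 8.28 CPM. Its log2 difference of -1.02 was just past the 2-fold line, with a ratio of 0.466 (95% interval 0.348 to 0.620), and it was no longer called with scaling by the total count (-0.90) or with the deeper library thinned. Pgam2, the muscle phosphoglycerate mutase of lower glycolysis (chromosome 11, 5801640 to 5803733), had 80 reads in WT and 1 in ERAP1+/-, a ratio of 0.0104 (95% interval 0.000261 to 0.0599). Eno3, the muscle enolase that acts on the product of the mutase, lies on the same chromosome from 70657202 to 70662513 and had 1331 and 1485 reads, the most of the 10 genes in both libraries. Its levels of 171 and 160 CPM gave a ratio of 0.932 with an interval from 0.865 to 1.00, and its log2 difference of -0.10 became 0.02 with scaling by the total count. Consecutive muscle enzymes of the pathway thus stood apart, with Pgam2 nearly absent and Eno3 level in ERAP1+/-.

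Myoglobin had the lowest ratio of the genes with a read in both libraries. Mb, which holds oxygen in red fibres and in the heart, lies on chromosome 15 from 77015487 to 77050670 and had 341 reads in WT and 1 in ERAP1+/-. These are 43.9 and 0.107 CPM, a log2 difference of -5.34, and the ratio of 0.00245 had an interval from 6.18e-05 to 0.0137 because of the single read. Ampd1, the muscle AMP deaminase of the purine nucleotide cycle (chromosome 3, 103074014 to 103099720), had 11 reads and none, which is at least 4.39-fold lower when 3 reads are taken as the limit.

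Of the 8 genes with a read in both libraries, 5 had an interval wholly below 1 (Ckm, Pygm, Pfkm, Pgam2 and Mb) and 3 had an interval that included 1 (Eno3, Gys1 and Ckmt2). Of all 17959 genes with a read in both libraries, 20.3% had an interval wholly below 1, and these intervals leave out any spread between mice or libraries, so nothing is read from the count. In reads, the 10 genes held 3064 in WT and 1991 in ERAP1+/-, of which Eno3 made up 43.4% and 74.6%. Without Eno3 the other members summed to 223 CPM and 54.4 CPM. The amounts missing in ERAP1+/- were largest for Ckm, at 71.3 ± 3.33 CPM (counting SE), Mb, at 43.8 ± 2.38 CPM, and Pygm, at 27.4 ± 2.27 CPM. Those of Eno3 (11.7 ± 6.26 CPM) and Gys1 (3.64 ± 2.67 CPM) were under 2 counting SE.

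**Figure D2:**
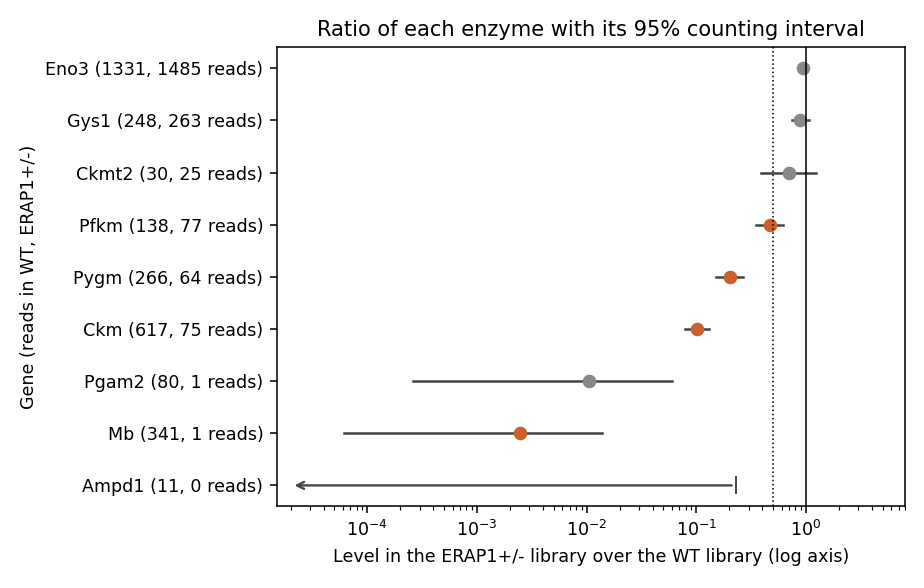
Ratio of the level in ERAP1+/- to that in WT on a log axis, with exact 95% counting intervals, for the 9 genes with more than 3 reads in 1 library. The solid line marks no difference and the dotted line 2-fold, orange points are genes called lower, the arrow of Ampd1 starts at its bound against 3 reads, and the ratios run from 0.00245 for Mb to 0.932 for Eno3, whose side of 1 changes with scaling by the total count.

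The 3' ends of these genes were checked for stretches shared with other genes. In the last 500 bases of their coding transcripts in GENCODE M21, where 3' libraries place their reads, none of the 75-base stretches, the read length, was found in a transcript of another gene for any of the 10. Among the other forms of these enzymes the share was 6.57% for Ckb and 2.58% for Pygl, but 50.6% to 82.4% for Eno1, the enolase of most tissues, and 74.2% to 78.6% for its close copy Eno1b, depending on the transcript. Reads from such stretches of Eno1 cannot be placed on a single gene, and shares of enolase reads are shares of the reads as counted. A low share does not show that a count is complete. The aldolase Aldoa, with at most 4.46% shared, had 1 read in each library. A read stands for the 3' end of a transcript in these libraries, and counts were not divided by length.

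Each enzyme also has forms used by other tissues. For Mb, which is not an enzyme, the tissue globins Cygb and Ngb were taken in their place. Together these 16 genes were set beside the muscle forms. Of these, 7 passed the level of 4, 2 were called lower (Ckb and Ngb) and 0 higher, where 3.96% of all 8013 genes past that level were called lower. Ngb reached the level in WT alone and could only be called lower, so nothing is read from the count. Over the 14 with at least 10 reads in both libraries together, the median log2 difference was -0.02 and 7 were above 0. Over the 9 muscle energy enzymes with that many reads, which were chosen by these differences, it was -1.27. That median is the value of Ampd1 (11 reads and 0), which was -3.92 with a pseudocount of 0.1. Over all 16142 genes with that many reads the median was 0.0020.

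The share of the muscle form among all reads of an enzyme, or of Mb among tissue globin reads, dropped, in percentage points, most for the mutase and the globins. Pgam2 made up 76.2% of phosphoglycerate mutase reads in WT (80 of 105, exact 95% interval 66.9% to 84.0%) and 2.44% in ERAP1+/- (1 of 41, 0.0617% to 12.9%). The other mutase, Pgam1, which nearly all cells use, had only 25 and 40 reads, and the share is one of the reads as counted. Mb made up 35.7% of tissue globin reads in WT (32.7% to 38.9%) and 0.170% in ERAP1+/- (0.00431% to 0.945%). Cygb, the globin of fibroblasts and other connective tissue cells, was level, with 478 and 543 reads, and Ngb, the globin of neurons, had 135 and 43 reads and a ratio of 0.266 (95% interval 0.184 to 0.378). The globin sum was thus lower through both Mb and Ngb.

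The sum of the creatine kinase reads rested largely on a form that is not of muscle. Ckm and Ckmt2 together made up 6.25% of creatine kinase reads in WT (5.79% to 6.73%) and 0.834% in ERAP1+/- (0.679% to 1.01%). Ckmt1, the ubiquitous mitochondrial form that is strong in intestinal epithelium, had 7104 and 10344 reads, or 122% of its WT level. Ckb, the brain form that smooth muscle and epithelium also use, had 2604 and 1552 reads and stood at 49.8% of its WT level (95% interval 46.7% to 53.0%), just past 2-fold, as it was in 6 of 10 alternative settings. The sum of the 4 forms had a ratio of 0.968 (95% interval 0.942 to 0.994), or 1.06 with scaling by the total count, and without Ckmt1 the other 3 forms had a summed ratio of 0.424 (0.400 to 0.450).

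For glycogen phosphorylase, Pygm made up 21.7% of the reads in WT (19.4% to 24.1%) and 5.44% in ERAP1+/- (4.22% to 6.90%). Pygb, the brain form, was level with 887 and 1023 reads, and Pygl, the liver form, had 74 and 89. For phosphofructokinase, Pfkm made up 7.62% (6.44% to 8.94%) and 4.54% (3.60% to 5.64%), and Pfkl and Pfkp, the liver and platelet subunits, were at 78.3% and 82.4% of their WT levels.

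In the reads as counted, enolase and glycogen synthase were the exceptions, with the form named for muscle in the lead in both libraries. Which cells gave the reads of Eno3 and Gys1 was not tested. The skeletal muscle fibre genes described below had summed levels of 1810 CPM in WT and 113 CPM in ERAP1+/-. Eno3 made up 91.2% of the enolase reads as counted in WT (89.7% to 92.6%) and 92.5% in ERAP1+/- (91.1% to 93.7%). Eno1 had 94 and 67 reads, but 50.6% to 82.4% of its end stretches are shared with other genes, so its count may be incomplete. Eno1b had 1 read in each library, and Eno2, the neuronal enolase, had 33 and 53. Gys1 took all glycogen synthase reads, since Gys2, the liver form, had none in either library. With no read of the other form this share could take no other value, and nothing about muscle is read from it. For AMP deaminase the other forms were not called, with Ampd2 at 64 and 124 reads and Ampd3 at 77 and 132, a summed ratio of 1.52 (95% interval 1.23 to 1.88), while Ampd1 went from 11 of 152 reads of the family to 0 of 256, which allows a share of up to 1.17%. Phkg2, the form of the phosphorylase kinase subunit used in liver, had 64 and 77 reads beside the 2 and 0 of Phkg1.

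**Figure D3:**
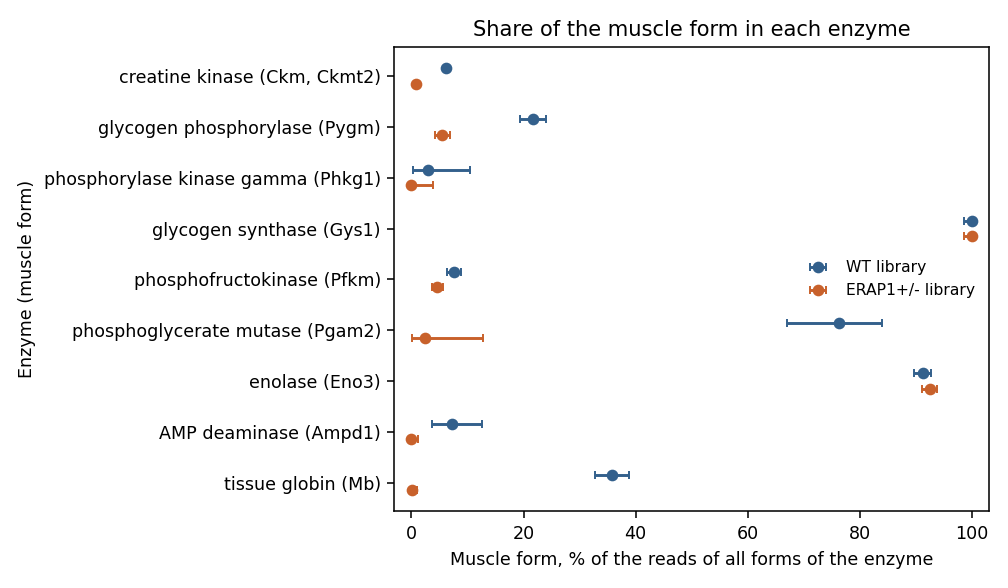
Reads of the muscle form as a percentage of the reads of all listed forms of an enzyme (for Mb, of the tissue globins), in the WT (blue) and ERAP1+/- (orange) libraries, with exact 95% binomial intervals (for 0 reads, the limit of 3 reads). The share falls from 76.2% to 2.44% for Pgam2 and from 35.7% to 0.170% for Mb, and stays at 91.2% and 92.5% for Eno3 and at 100% for Gys1. Shares are of the reads as counted, and 50.6% to 82.4% of the end stretches of Eno1 are shared with other genes. The other listed synthase, Gys2, had no read in either library.

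Other energy genes that are enriched in muscle were mostly lower, to differing extents. Of 22 in the files, 11 passed the level of 4 and 0 were called in either direction. The median log2 difference was -0.91 over the 19 with at least 10 reads, of which 17 were below 0. Hk2, the hexokinase of insulin-sensitive tissues, had 2587 and 2316 reads, and Slc25a4, the muscle and heart ADP/ATP carrier, had 2209 and 1387. With at least 10 reads in 1 or both libraries in place of the level of 4, 6 of them were lower, and they were named after their values were seen. They were Cox6a2, a subunit of cytochrome oxidase in striated muscle (112 and 13 reads), Ak1, the adenylate kinase that works beside creatine kinase (114 and 52), Fabp3, the fatty acid binding protein of heart and red fibres (38 and 14, with 19.2% of its end stretches shared with another gene), Cox8b (37 and 6), Adssl1, the muscle adenylosuccinate synthase of the purine nucleotide cycle (19 and 1), and Ppp1r3a, which tethers a phosphatase to glycogen in muscle (18 and 0). Fbp2, the muscle fructose bisphosphatase, was not called but was also lower, with 942 and 850 reads. Its level was 75.4% of the WT level (counting interval 68.6% to 82.8%). In contrast, Cox7a1 had 964 and 1381 reads and stood above its WT level, at 119.7% (counting interval 110.1% to 130.1%).

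Of the steps that fibres share with other cells, glycogen handling was near level on the median, while glycolysis was lower. Of 12 genes of glycogen handling, 9 passed the level of 4, 1 was called lower and 0 higher, and the median log2 difference was 0.0015 over 12. The lower gene was Ppp1r3b, a glycogen-targeting subunit of phosphatase 1 (577 and 340 reads, 49.2% of the WT level, 95% interval 42.9% to 56.4%), which was not called with scaling by the total count or with TMM factors taken without the muscle and epidermis genes. Ugp2, which makes UDP-glucose for glycogen synthase, had 571 and 695 reads and Pgm1 had 367 and 433. Of 9 shared glycolysis genes, 6 passed the level and 0 were called. The median was -0.39 over the 8 with enough reads, all of which were below 0. Their summed level over all 9 was 1668 CPM in WT and 1128 CPM in ERAP1+/-. Pkm had 5024 and 3138 reads, or 52.2% of the WT level (95% interval 49.9% to 54.6%), and Ldha 3574 and 3165, or 74.0%. Ldhb, which did not reach the level of 4, had 110 and 55 reads, or 41.8% (29.7% to 58.2%). Aldoa, an aldolase used in nearly all cells, had 1 read in each library, so that the deposited counts do not give the level of every step. Of 6 further genes of the purine nucleotide cycle and adenylate balance, 4 passed the level and 0 were called, with a median of -0.20, and Ak3, a mitochondrial adenylate kinase, had 1773 and 1445 reads.

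The contractile and calcium genes that define a striated fibre were lower together with the energy enzymes. Of 34 such genes, 18 passed the level of 4, 16 were called lower and 0 higher. Of all 8013 genes past that level, 3.96% were called lower and 1.39% higher. All 16 reached the level in WT alone and could only be called lower, so nothing is read from the count. The median log2 difference was -3.94 over the 30 with at least 10 reads, all of which were below 0. The summed level of the 34 genes was 1810 CPM in WT and 113 CPM in ERAP1+/-. On the log2(CPM + 1) scale the largest differences were those of Myh8, the perinatal myosin heavy chain (1259 and 1 reads), Myl3 (1702 and 8), Myh1, a fast myosin heavy chain (909 and 1), and Ttn, the giant spring of the sarcomere (2154 and 26). The genes not called were Tnni1 (713 and 669 reads) and Ldb3 (209 and 147). Among the energy enzymes, Mb and Pgam2 were as low in ERAP1+/- as Myh8 and Myh1, with 1 read each, while Ckm kept 75 reads and Pygm 64.

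Genes of other tissues also differed between the libraries, and their part in the result was not tested. All 11 smooth muscle genes passed the level and had differences from -1.18 to -0.67, with a summed level of 12314 CPM in WT and 6323 CPM in ERAP1+/-. Of these, 3 were called lower (Tagln, Myh11 and Mylk), or 1 with scaling by the total count. Acta2 had 18222 and 12927 reads and Myl9 7292 and 4906. Of 11 suprabasal epidermis genes, 10 passed the level, in WT alone, so that they could only be called lower, and all 10 were. The 11 genes had summed levels of 3384 and 21.8 CPM, with Flg at 7952 and 4 reads, Calm4 at 2399 and 2, Krtdap at 3681 and 15 and Spink5 at 4453 and 24. The heart uses Ckm, Ckmt2 and Mb as well, and of its defining genes several were at or near 0, with Nppb and Mybpc3 at 0 in both libraries, Myh6 at 0 and 2 reads and Nppa at 0 and 4. Of its 9 genes, 1 was called lower, Tnnt2 (975 and 241 reads), and Ryr2 had 121 and 112. Among 12 genes of intestinal epithelium, 11 passed the level, Krt20 was lower (5156 and 2674 reads) and Muc2 higher (12020 and 32939), and the summed levels were 11972 and 11612 CPM.

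**Figure D4:**
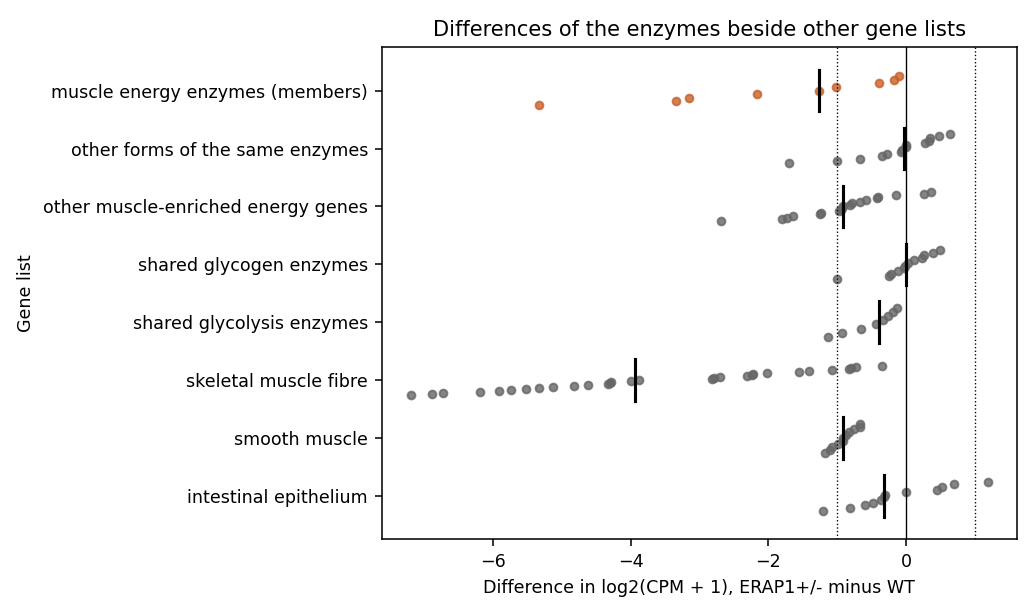
Difference in log2(CPM + 1), ERAP1+/- minus WT, for each gene with at least 10 reads over both libraries, by gene list, with the median as a bar and dotted lines at 2-fold. The muscle energy enzymes (orange, median -1.27) spread from -5.34 to -0.10 and were chosen by these differences. Their median is the value of Ampd1 (11 reads and 0) and depends on the pseudocount. It lies between those of the skeletal muscle fibre genes (median -3.94) and the other forms of the same enzymes (median -0.02). The point of Eno3 lies on the other side of 0 with scaling by the total count.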

How the data were processed

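RNA of intestine from WT and ERAP1+/- mice (3 mice pooled per genotype) was sequenced as 1 QuantSeq 3' FWD library per genotype. The files as deposited hold raw counts for each gene symbol, with no normalization applied. The methods name STAR with HTSeq and also Bowtie2 with RSEM on GRCm38, and the labels name the latter pair. Which of them made the counts is not given in the sources used here. Every row names a gene.

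Libraries were scaled with TMM (trimmed mean of M-values, from edgeR 4.0.16 under R 4.3.3), which gave factors of 0.958 and 1.04, and CPM and log2(CPM + 1) followed. With 1 library per genotype no quasi-likelihood test can be fitted, and no p-value is given. Ratios carry exact conditional binomial and shares exact Clopper-Pearson 95% intervals (scipy 1.17.1). The calls and intervals were tested on simulated data. These were drawn with counting error alone and scaled by the total count, so the simulation holds no spread between mice or libraries. The enzymes and gene lists were chosen with earlier results of these data known. Named genes were all members, all other forms of their enzymes and, per list, up to 4 called genes with the largest differences and 2 others with the most reads, of which 1 gene is not reported here. The 10 alternatives included DESeq2 1.42.0 size factors, other filters, thresholds and a pseudocount of 0.1. Positions and 3' ends came from GENCODE M21 on GRCm38.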

Additional observations from a re-analysis of the deposited data

How the results depend on the processing

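No paired analysis was possible because WT and ERAP1+/- have 1 library each, and leaving out a library was not possible for the same reason. Of the muscle energy enzymes, 4 were called lower, and 1 (Ckm) when a log2 value of at least 6 was asked for. Ckm was called lower in all 10 alternatives, and Pygm and Mb in 9. With scaling by the total count, the median log2 difference over all genes past the level was 0.11 in place of -0.03. It gave Eno3 a log2 difference of 0.02 and summed ratios of 1.06 for creatine kinase, 0.873 for glycogen phosphorylase, 0.853 for phosphofructokinase and 1.00 for enolase, and left 0 shared glycogen genes and 1 smooth muscle gene called lower. With TMM factors taken without muscle and epidermis genes, 0 shared glycogen genes were lower. Without mitochondrial and ribosomal RNA, 2 other muscle-enriched energy genes and 1 shared glycolysis gene were lower.

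All genes called numbered 428, and 1434 without a filter, 1390 with at least 10 reads, 160 with a log2 value of at least 6 and 160 with a 4-fold threshold. Both with no filter and with at least 10 reads, the lower genes were 6 of the other muscle-enriched energy list, 1 shared glycolysis gene, 26 skeletal muscle fibre genes and 3 brown fat genes. With a log2 value of at least 6, 8 fibre genes were lower. With a 4-fold threshold, 0 genes of the shared glycogen, smooth muscle and intestinal epithelium lists were lower and 0 of the epithelium list higher. Without Ckmt1, the muscle forms made up 19.9% of creatine kinase reads in WT and 6.05% in ERAP1+/-. The filters test other genes, and the 4-fold threshold asks for a larger difference among the same 8013. Ampd1, Phkg1 and Ckmt2 are limited by depth.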

Other observations

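Genes of brown fat, a tissue that also uses muscle forms of mitochondrial enzymes, were few and low. Of 5, none reached a log2 value of 4 in either library. Elovl3, a fatty acid elongase of brown fat and sebaceous gland, had 99 reads in WT and none in ERAP1+/-, at least 39.5-fold lower when 3 reads are taken as the limit. Cidea, a lipid droplet protein of both tissues, had 98 and 8 reads. Ucp1, which defines brown fat, had 3 and 0 reads, and Otop1 had 0 in both. Of the myogenic regulators, Mef2c, which many other cells use, had 647 and 558 reads, while Myog had 6 and 0, Myf6 and Pax7 each 2 and 0, Myod1 0 and 1, and Myf5 0 in both.

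The 3 genes whose levels in the 2 libraries were nearest to those of Ckm were Krt6b, Krt14 and Sbsn, all of stratified epithelium, at distances of 0.33, 0.34 and 0.55 on the log2 scale. The 3 nearest to Eno3 were Ubxn1, Ndufa11 and Mfsd6, at distances up to 0.028. Over 2 libraries such nearness describes these levels alone.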
